A study of Mus musculus with 12 samples.

Results

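The extracellular matrix and fibroblast-type genes described here are a set of 41 genes named by symbol: collagens, enzymes that crosslink or cut the matrix, elastic fibre and proteoglycan genes, matricellular proteins and surface markers of stromal cells. Of the 41 genes, 39 had a transcript cluster (the unit of measurement of the array) annotated with a single gene symbol, and 38 passed the filter on low values, of 15868 genes tested in all. The cluster of Loxl2 is annotated with another symbol as well, and Fbn1 was not analysed here. Fap, a serine protease of activated fibroblasts, did not pass the filter: it lay between 5.06 and 5.25 log2 units on all 12 arrays, below the 30th percentile of each. The set was put together with earlier results of these arrays known.

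RNA of primary keratinocytes from FVB/N mice was measured on Affymetrix Mouse Gene 1.0 ST arrays, 3 in each of 4 groups. The first group held MT-HGF keratinocytes, transgenic for the growth factor HGF (hepatocyte growth factor), mock transduced and then kept with AG1478 for 24 h in 8% serum. AG1478 blocks the kinase activity of EGFR, the receptor for epidermal growth factor. The second held untreated MT-HGF keratinocytes, the third wild-type keratinocytes transduced with v-rasHa, a viral oncogenic Hras (RAS cells), and the fourth wild-type control keratinocytes. In MT-HGF mice the transgene is driven by a metallothionein promoter, which is active in many cell types, as general background. The labels of the last 3 groups share a note on a transduction of 3 days, and they do not say whether their controls received a mock transduction, so the oncogene and the transduction step cannot be told apart. The AG1478-treated arrays carry other notes on growth, extraction and labelling, so the treatment and these differences cannot be told apart. The labels call the replicates of the MT-HGF, RAS and wild-type groups biological and number those of the AG1478-treated group with no such word. No animal or culture of origin is named, and a p-value therefore covers only the spread among the arrays, part of which may be technical.

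Values are log2 expression made by the authors with robust multi-array averaging (RMA). The arrays had medians of 6.77 to 6.84 log2 units and correlated with their own group at 0.993 to 0.997 on average. As a background, each array's 95th percentile of 160 chemosensory receptor genes, a class mostly silent outside sensory tissue, was used; it lay between 6.82 and 7.22 log2 units. The transgene was checked through Hgf, which was at 10.77, 10.80 and 10.66 log2 units on AG1478-treated MT-HGF arrays, 10.59, 10.72 and 10.73 on MT-HGF arrays, 4.90, 5.36 and 5.22 on RAS arrays and 4.85, 4.96 and 4.93 on wild-type arrays. It was thus high on the 6 arrays of transgenic cells and below background on the other 6. Keratins 5 and 14, which define basal keratinocytes, were high in all groups: Krt5 lay between 13.34 and 13.52 log2 units and Krt14 between 12.85 and 13.05 on the 12 arrays.

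The extracellular matrix is the network of collagens, elastic fibres, proteoglycans and adhesive glycoproteins around cells. In skin most of it is made by dermal fibroblasts, while keratinocytes themselves make basement membrane components and, in culture or wounds, fibronectin, thrombospondins and other matricellular proteins that signal to cells through integrins. Fibrillar collagens give tensile strength, lysyl oxidases crosslink them, and the ADAMTS proteases and their inhibitors set the turnover of proteoglycans. TGF-beta is a well known inducer of many of these genes, and the CCN proteins are classical targets of TGF-beta and of the YAP/TAZ transcriptional coactivators. In bulk RNA, fewer cells of a type and less RNA per cell cannot be told apart.

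Promoter sequences are shown for 4 members, from RefSeq on mouse build GRCm38.p6: Pdgfc and Adamts1, which were lower than wild type in all other groups, Tgfbi, which was called lower in RAS but not in MT-HGF cells, and Col4a2, whose annotated start lies 21 bases from that of its divergent neighbour Col4a1 on the opposite strand. Each window runs from 250 bases before to 50 bases after the annotated start, 300 bases in all, at chr3:81036166-81036465 (+ strand), chr16:85803064-85803363 (- strand), chr13:56609336-56609635 (+ strand) and chr8:11312555-11312854 (+ strand). The annotated transcripts of Col4a1 and Col4a2 overlap at their starts, so the bases printed before the Col4a2 start lie after that of Col4a1. Capitals mark matches on either strand to 5 motifs. The AP-1 motif was searched as TGANTCA, the motif of TEAD factors (partners of YAP/TAZ) as GGAATG, the TATA box as TATAAA, the SP1 motif as GGGCGG, and the binding motif of serum response factor (SRF) as the CArG box.
Pdgfc: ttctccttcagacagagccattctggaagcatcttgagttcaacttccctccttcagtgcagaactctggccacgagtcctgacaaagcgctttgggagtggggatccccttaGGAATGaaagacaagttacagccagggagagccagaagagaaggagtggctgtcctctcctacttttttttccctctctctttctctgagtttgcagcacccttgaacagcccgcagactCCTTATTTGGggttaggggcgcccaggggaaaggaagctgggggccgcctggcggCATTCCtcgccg
Adamts1: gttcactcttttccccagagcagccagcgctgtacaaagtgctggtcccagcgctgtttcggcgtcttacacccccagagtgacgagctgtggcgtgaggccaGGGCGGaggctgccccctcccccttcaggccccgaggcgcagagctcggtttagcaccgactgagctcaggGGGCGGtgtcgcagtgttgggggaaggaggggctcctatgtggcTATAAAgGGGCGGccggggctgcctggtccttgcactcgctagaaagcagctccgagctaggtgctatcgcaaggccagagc
Tgfbi: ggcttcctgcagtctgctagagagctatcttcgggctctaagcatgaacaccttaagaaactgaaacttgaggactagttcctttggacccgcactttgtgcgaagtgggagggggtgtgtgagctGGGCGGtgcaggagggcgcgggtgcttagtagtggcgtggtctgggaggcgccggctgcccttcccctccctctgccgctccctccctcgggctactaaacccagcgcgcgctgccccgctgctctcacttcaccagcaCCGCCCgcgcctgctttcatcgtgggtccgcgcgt
Col4a2: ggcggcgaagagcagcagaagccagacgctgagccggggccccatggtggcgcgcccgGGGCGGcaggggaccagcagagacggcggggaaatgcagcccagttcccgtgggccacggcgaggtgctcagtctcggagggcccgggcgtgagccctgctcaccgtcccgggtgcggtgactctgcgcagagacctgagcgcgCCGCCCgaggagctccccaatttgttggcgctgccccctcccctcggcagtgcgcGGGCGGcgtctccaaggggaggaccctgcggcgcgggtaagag
In Pdgfc the capitals are a TEAD match that begins 137 bases before the start, the CArG box from 17 bases before it, and a TEAD match on the other strand from base 39 of the transcript. Adamts1 holds a TATA box from 32 bases before its start and 3 SP1 matches, of which the nearest follows the TATA box after 1 base. Tgfbi and Col4a2 hold only SP1 matches, 2 and 3 of them. A promoter was in the table for 23 of the 38 tested members. Of these 23 genes, 14 held the SP1 letters (38.2% of all genes with a promoter did), 7 the TATA letters (15.7%), 4 the TEAD letters (16.6%), 1 the AP-1 letters (8.97%) and 1 the CArG box (1.81%); a match is a run of letters and was not tested as a binding site, and no matches overlapped in these 4 windows.

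The comparison of RAS with wild-type cells addressed what the oncogene changes, and most matrix and fibroblast-type genes were lower in RAS cells. Calls are at an adjusted p under 0.05 in limma's moderated fit across all genes. Of the 38 tested members 28 were called lower (19.9% of all genes tested were) and 1 higher (12.6% were), and 9 were not called. The arrays of the 2 groups did not overlap for 30 members (42.9% of all genes). By the fitted difference 18 members, Postn at background among them, were called lower by at least 2-fold, against 0.637% of all genes. The median difference of the members was -0.89 log2 units (-0.84 with bounds in place of fitted values where a group lay at background, and 0 where neither had a level), and that of all genes was -0.02.

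Set against wild type, MT-HGF cells address what excess HGF does, and here too 28 members were called lower (23.9% of all genes were), but 6 were called higher (17.1% were). By the fitted difference 17 members, Postn again among them, were called lower by at least 2-fold (1.19% of all genes were), and for 35 members the arrays did not overlap (50.4%). Leaving out genes at background, 27 members were lower and 5 higher. The median over members was -0.71 log2 units (-0.69 with bounds), against -0.03 for all genes. Both comparisons use the same wild-type arrays, so whether RAS and MT-HGF cells differ was tested directly: 16 members were called higher in MT-HGF than in RAS cells (13.4% of all genes were) and 12 lower (12.6% were), with arrays that did not overlap for 31 members (39.2%); the median over members was 0.05 log2 units, against -0.02 for all genes. Without genes at background, 15 members were higher in MT-HGF than in RAS cells and 11 lower, and the median with bounds was 0.025. AG1478-treated MT-HGF cells still had 29 members called lower than wild type (26.2% of all genes were) and 4 called higher (16.8% were). Of these, 28 of those lower and 3 of those higher did not lie at background. The arrays did not overlap for 34 members (50.5%), and the median over members was -0.66 log2 units (-0.56 with bounds). Against untreated MT-HGF cells, 33 of the 38 members were not called after AG1478, with 2 called higher (6.57% of all genes were; 0 without MT-HGF replicate 2) and 3 lower (9.91% were). Here 14 members had arrays that did not overlap (34.2% of all genes), and the median over members was 0.04, against 0.02 for all genes.

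**Figure D1:**
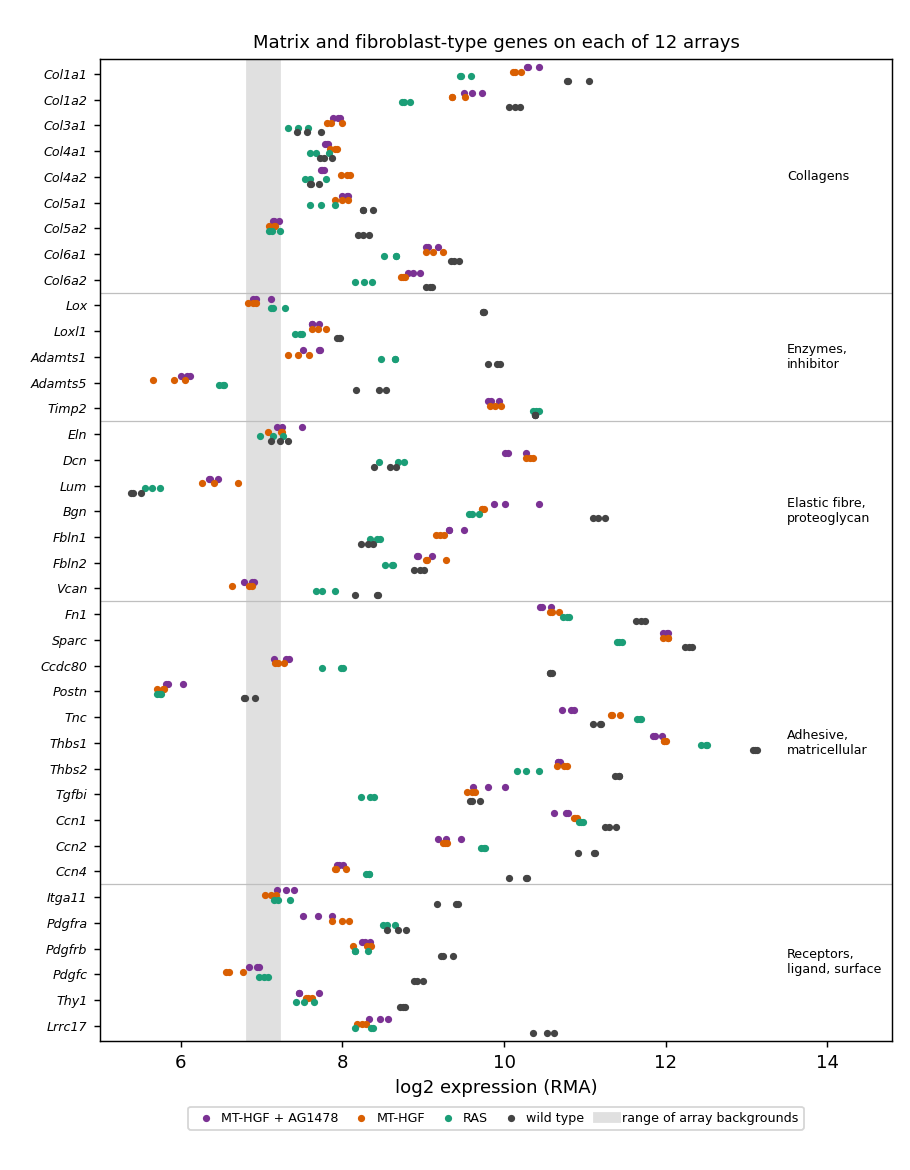
Log2 expression (RMA) of the 38 tested members (rows, by role) on each of the 12 arrays; each point is 1 array, coloured by group, and the grey band is the range of array backgrounds, 6.82 to 7.22. For Lox, Ccdc80, Itga11, Ccn4 and Lrrc17 the wild-type points stand apart at the high end, while for Dcn and Fbln1 the points of both MT-HGF groups do.

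Of the 9 collagens 6 were called lower in RAS cells (19.9% of all genes were). In MT-HGF cells 6 were called lower (23.9% of all genes were) and 2 higher (17.1% were). Type I collagen is the main fibrillar collagen of dermis and bone. Its alpha 1 chain gene Col1a1 was at 10.43, 10.29 and 10.30 log2 units on AG1478-treated MT-HGF arrays, 10.21, 10.13 and 10.12 on MT-HGF arrays, 9.46, 9.59 and 9.46 on RAS arrays and 11.05, 10.80 and 10.78 on wild-type arrays. The 4 groups did not overlap pairwise, with wild type highest and RAS lowest. Col1a1 fell by 1.37 log2 units in RAS cells (SE 0.079 from 3 arrays in each group; adjusted p = 5.06e-10, limma) and by 0.72 in MT-HGF cells (adjusted p = 1.13e-06), and it was higher in MT-HGF than in RAS cells by 0.65 ± 0.079 (adjusted p = 1.46e-05). The alpha 2 chain gene Col1a2 was at 9.73, 9.60 and 9.51 log2 units on AG1478-treated MT-HGF arrays, 9.52, 9.35 and 9.35 on MT-HGF arrays, 8.74, 8.83 and 8.76 on RAS arrays and 10.20, 10.06 and 10.14 on wild-type arrays. Its differences were close to those of Col1a1 in each comparison, at -1.36 in RAS cells and -0.72 in MT-HGF cells.

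Type V collagen sits inside type I fibrils and limits their diameter. Col5a2, its alpha 2 chain gene, was at 7.22, 7.15 and 7.14 log2 units on AG1478-treated MT-HGF arrays, 7.15, 7.09 and 7.16 on MT-HGF arrays, 7.09, 7.22 and 7.12 on RAS arrays and 8.19, 8.33 and 8.25 on wild-type arrays. All 9 arrays of the other groups lay below the 3 wild-type arrays, and the treated arrays were above background on 2 of 3. The RAS and MT-HGF arrays were above background but close to it, which limits the falls and the difference between these groups. The falls were of close size in RAS (-1.11 ± 0.064) and MT-HGF cells (-1.12 ± 0.064), and MT-HGF minus RAS was -0.01 (95% confidence interval -0.15 to 0.13). Col5a1 fell by 0.55 in RAS and by 0.31 in MT-HGF cells. The type VI collagen genes Col6a1 and Col6a2, whose products form beaded microfibrils, fell by 0.78 and 0.82 in RAS cells and by 0.25 and 0.33 in MT-HGF cells; the MT-HGF call of Col6a1 was lost without MT-HGF replicate 2 (adjusted p = 0.0673).

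Col3a1, a fibrillar collagen of pliable tissue, went the other way in MT-HGF cells. It was at 7.97, 7.88 and 7.94 log2 units on AG1478-treated MT-HGF arrays, 8.00, 7.86 and 7.80 on MT-HGF arrays, 7.57, 7.45 and 7.33 on RAS arrays and 7.73, 7.43 and 7.56 on wild-type arrays. The arrays of MT-HGF cells lay above those of wild type (difference 0.31 ± 0.085, limma adjusted p = 0.00661), while RAS and wild-type arrays overlapped (-0.12, not called). Col4a2, an alpha chain of the basement membrane collagen type IV, was at 7.77, 7.74 and 7.75 log2 units on AG1478-treated MT-HGF arrays, 8.10, 8.06 and 7.98 on MT-HGF arrays, 7.79, 7.54 and 7.60 on RAS arrays and 7.71, 7.59 and 7.61 on wild-type arrays. It rose by 0.41 in MT-HGF over wild-type cells (adjusted p = 0.000197) and was lower by 0.29 with AG1478 than without (adjusted p = 0.00953); in RAS cells it was not called (0.01, 95% confidence interval -0.15 to 0.16). Its neighbour Col4a1, whose promoter window shares 78 bases with the one printed for Col4a2, was at 0.11 in MT-HGF against wild-type cells and was not called there. Of the 9 collagens, 1 was called after AG1478. In MT-HGF against RAS cells 8 were called higher (13.4% of all genes were) and 0 lower (12.6% were), by 0.20 (Col4a1) to 0.65 log2 units. The call of Col4a1 (limma adjusted p = 0.0487) was lost without 1 or other of 9 arrays (adjusted p 0.0552 to 0.186). It was also lost with quantile normalization repeated (0.106), with only the compared arrays (0.0747) and with limma's trend and robust options (0.0594). The call of Col5a1 (0.24, adjusted p = 0.0292) was also lost without any 1 of 4 arrays (adjusted p 0.0839 to 0.142) and with quantile normalization repeated (0.0702).

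The enzymes that act on the matrix held some of the largest falls. Lysyl oxidase, which crosslinks collagen and elastin, is encoded by Lox, which was at 6.93, 7.12 and 6.89 log2 units on AG1478-treated MT-HGF arrays, 6.90, 6.83 and 6.93 on MT-HGF arrays, 7.14, 7.12 and 7.29 on RAS arrays and 9.73, 9.75 and 9.74 on wild-type arrays. Wild-type arrays were alone at a high level, and Lox was above background on 1 of 3 arrays in each MT-HGF group. It was 5.89-fold lower in RAS cells (adjusted p = 1.54e-13) and 7.23-fold lower in MT-HGF cells (adjusted p = 3.76e-14), with the second fold taken partly at background. The RAS arrays were above background but mostly close to it, which limits the first fold too. Its relative Loxl1 fell less, by 0.49 in RAS and by 0.24 in MT-HGF cells.

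Adamts1 and Adamts5 encode secreted metalloproteases that cut proteoglycans such as versican and aggrecan. Adamts1 was at 7.72, 7.71 and 7.51 log2 units on AG1478-treated MT-HGF arrays, 7.45, 7.33 and 7.59 on MT-HGF arrays, 8.47, 8.65 and 8.65 on RAS arrays and 9.81, 9.91 and 9.95 on wild-type arrays. RAS arrays lay between wild type and the 2 MT-HGF groups with no overlap, and MT-HGF was lower than RAS by a further 1.13 log2 units (-1.13 ± 0.084, adjusted p = 6.38e-08). Adamts5 was at 6.11, 6.08 and 6.00 log2 units on AG1478-treated MT-HGF arrays, 6.05, 5.66 and 5.92 on MT-HGF arrays, 6.48, 6.52 and 6.54 on RAS arrays and 8.17, 8.54 and 8.45 on wild-type arrays. Only the wild-type arrays were above background, so its fall is a bound, at least 2.62-fold in RAS and at least 2.71-fold in MT-HGF cells. Timp2, an inhibitor of matrix metalloproteases, fell by 0.49 in MT-HGF cells (adjusted p = 6.37e-06) and was not called in RAS cells (0.02, 95% confidence interval -0.12 to 0.15); the MT-HGF minus RAS difference was -0.51 ± 0.062 (adjusted p = 1.57e-05). After AG1478 the 5 tested enzyme and inhibitor genes differed from untreated MT-HGF cells by -0.06 to 0.19 log2 units and were not called.

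Of the 7 tested proteoglycan and elastic fibre genes, 3 were called higher than wild type in MT-HGF cells (17.1% of all genes were) and 2 lower (23.9% were). Without Lum, which lay at background, 2 were higher. In RAS cells 3 were called lower (19.9% of all genes were) and 0 higher (12.6% were). These counts come from a short list and are to be read against those shares. Decorin, a small leucine-rich proteoglycan that binds collagen fibrils, is encoded by Dcn, which was at 10.01, 10.05 and 10.27 log2 units on AG1478-treated MT-HGF arrays, 10.32, 10.27 and 10.36 on MT-HGF arrays, 8.45, 8.68 and 8.76 on RAS arrays and 8.39, 8.59 and 8.67 on wild-type arrays. The 6 arrays of transgenic cells were all above the 6 of RAS and wild-type cells, which overlapped. Dcn rose 3.4-fold in MT-HGF over wild-type cells (adjusted p = 1.50e-10) and 3.22-fold over RAS cells (adjusted p = 3.75e-09), and stayed 2.94-fold above wild type with AG1478. Fbln1, which encodes the matrix glycoprotein fibulin 1 and was singled out after its values were seen, likewise separated transgenic from other cells, at 9.51, 9.32 and 9.32 log2 units on AG1478-treated MT-HGF arrays, 9.25, 9.16 and 9.20 on MT-HGF arrays, 8.47, 8.34 and 8.43 on RAS arrays and 8.23, 8.32 and 8.38 on wild-type arrays. It rose by 0.90 log2 units in MT-HGF over wild-type cells (adjusted p = 2.25e-08) and was at 0.10 in RAS cells, not called. Lum, the gene of lumican and the neighbour of Dcn on chromosome 10, was fitted as 1.03 in MT-HGF against wild-type cells, but all 12 arrays lay below background, between 5.38 and 6.71, so no difference is given.

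Biglycan, a relative of decorin in structure, moved the opposite way. Its gene Bgn was at 10.01, 9.88 and 10.43 log2 units on AG1478-treated MT-HGF arrays, 9.72, 9.73 and 9.75 on MT-HGF arrays, 9.57, 9.61 and 9.69 on RAS arrays and 11.10, 11.25 and 11.16 on wild-type arrays. No groups overlapped, but RAS and MT-HGF arrays lay close together, 2.92-fold and 2.71-fold below wild type (adjusted p = 4.00e-09 and 7.08e-09). With AG1478 Bgn was higher than in untreated MT-HGF cells by 0.37 ± 0.10 (adjusted p = 0.0198); the treated arrays had an SD of 0.29 with replicate 3 highest, and without it the difference was 0.21 (adjusted p = 0.0662). Without MT-HGF replicate 2 the adjusted p was 0.0628. Vcan, the gene of the large proteoglycan versican, was at 6.88, 6.78 and 6.90 log2 units on AG1478-treated MT-HGF arrays, 6.88, 6.63 and 6.85 on MT-HGF arrays, 7.68, 7.91 and 7.75 on RAS arrays and 8.15, 8.43 and 8.45 on wild-type arrays. It was intermediate in RAS cells and not above background in either MT-HGF group, a fall of at least 2.63-fold in MT-HGF cells. Fbln2 was at 9.11, 8.93 and 8.93 log2 units on AG1478-treated MT-HGF arrays, 9.04, 9.03 and 9.28 on MT-HGF arrays, 8.62, 8.53 and 8.61 on RAS arrays and 8.89, 9.01 and 8.96 on wild-type arrays: it fell by 0.37 in RAS cells (adjusted p = 0.00159) and was not called in MT-HGF cells (0.17). Elastin, encoded by Eln, was not called in any of the 5 comparisons, with group means between 7.13 and 7.31 log2 units.

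**Figure D2:**
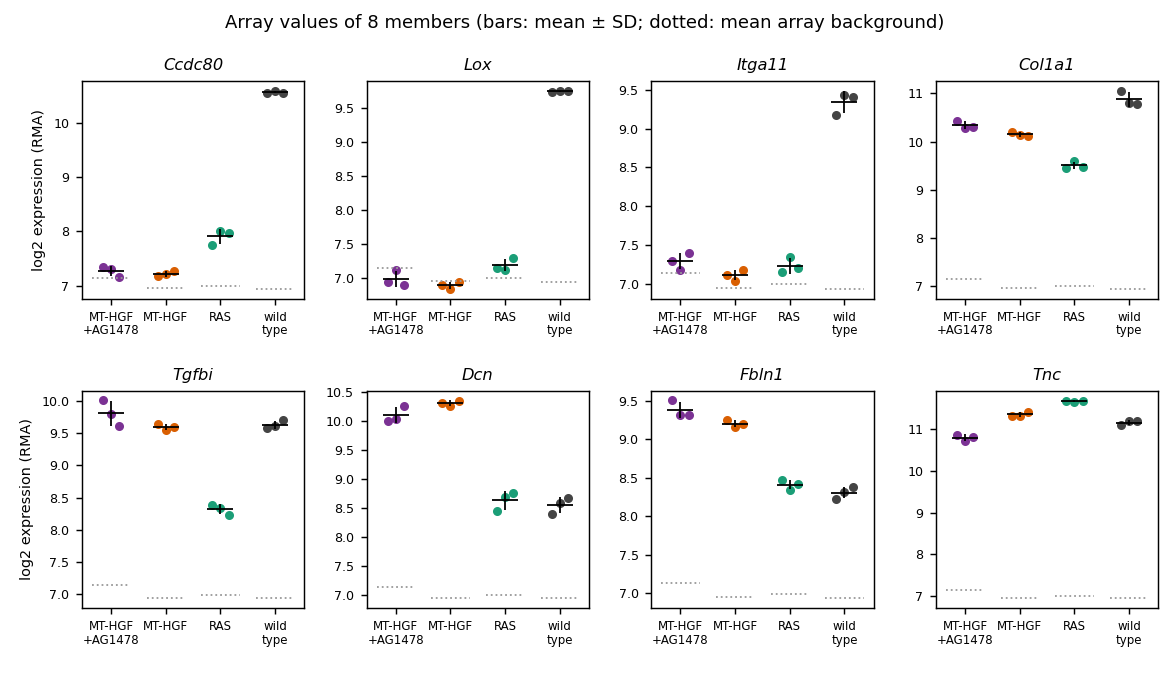
Log2 expression (RMA, vertical axes scaled per gene) of 8 members on each array, with the mean and SD of each group (n = 3) and the mean array background as dotted lines. Ccdc80, Lox and Itga11 were highest in wild type, Tgfbi was lowest in RAS cells, Dcn and Fbln1 were higher in both MT-HGF groups than in the others, and Tnc was highest in RAS and lowest in AG1478-treated cells.

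Of the 11 adhesive and matricellular genes 10 were called lower in RAS cells (19.9% of all genes were) and 9 in MT-HGF cells (23.9% were). Without Postn, for which no fold is given, these counts were 9 and 8. Tnc was called higher in both, where 12.6% and 17.1% of all genes were. The largest fall was that of Ccdc80, a secreted protein that binds matrix. Ccdc80 was at 7.34, 7.30 and 7.16 log2 units on AG1478-treated MT-HGF arrays, 7.17, 7.21 and 7.27 on MT-HGF arrays, 7.75, 8.01 and 7.98 on RAS arrays and 10.56, 10.60 and 10.57 on wild-type arrays. The 3 wild-type arrays stood far above the rest. Ccdc80 was above background on 2 of 3 treated arrays and close above it on MT-HGF arrays, which limits the MT-HGF differences. Its level was 6.34-fold lower in RAS cells (adjusted p = 1.55e-13) and 10.3-fold lower in MT-HGF cells (adjusted p = 1.33e-14), and MT-HGF was below RAS by 0.70 log2 units (adjusted p = 4.31e-06).

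The CCN genes encode small secreted regulators of adhesion and growth factor signalling, and all 3 fell. Ccn4 was at 8.01, 7.96 and 7.93 log2 units on AG1478-treated MT-HGF arrays, 7.91, 8.04 and 7.91 on MT-HGF arrays, 8.33, 8.33 and 8.29 on RAS arrays and 10.07, 10.27 and 10.28 on wild-type arrays. Ccn2, the connective tissue growth factor gene, was at 9.47, 9.29 and 9.18 log2 units on AG1478-treated MT-HGF arrays, 9.24, 9.29 and 9.27 on MT-HGF arrays, 9.75, 9.72 and 9.76 on RAS arrays and 10.92, 11.12 and 11.12 on wild-type arrays. For both, the groups ordered as wild type, RAS and then the 2 MT-HGF groups, which overlapped with each other. Ccn4 was 3.7-fold lower in RAS and 4.76-fold lower in MT-HGF cells, and Ccn2 2.48-fold and 3.44-fold. MT-HGF was below RAS for Ccn4 by 0.36 (adjusted p = 0.00105) and for Ccn2 by 0.47 log2 units (adjusted p = 0.000262). Ccn1 changed less, with falls of 0.36 in RAS and 0.43 in MT-HGF cells.

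Thrombospondins, which bind matrix and cell surface receptors and in the case of thrombospondin 1 activate latent TGF-beta, fell unequally. Thbs1 fell by 0.63 in RAS and by 1.12 in MT-HGF cells, and Thbs2 by 1.12 in RAS and by 0.69 in MT-HGF cells. The direct MT-HGF minus RAS difference was -0.49 ± 0.059 for Thbs1 (limma adjusted p = 1.45e-05) and 0.44 ± 0.070 for Thbs2 (adjusted p = 0.000221). The paralogs thus ranked RAS and MT-HGF cells in opposite order, with wild type highest for both. Fibronectin, encoded by Fn1, fell by 0.92 in RAS and by 1.08 in MT-HGF cells. Sparc, the gene of osteonectin, a collagen-binding glycoprotein, fell by 0.86 in RAS but by 0.27 in MT-HGF cells. Postn, the gene of periostin, was called lower in every group than in wild type, but it was above background on 1 of the 12 arrays, a wild-type one, and no fold is given.

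Tgfbi, which encodes an integrin-binding matrix protein named for its induction by TGF-beta, fell in RAS cells and was not called in MT-HGF cells; it was picked out after its values were seen. Its arrays were at 10.01, 9.80 and 9.62 log2 units on AG1478-treated MT-HGF arrays, 9.64, 9.54 and 9.60 on MT-HGF arrays, 8.39, 8.34 and 8.23 on RAS arrays and 9.58, 9.61 and 9.70 on wild-type arrays. RAS arrays lay apart at the low end and the other groups overlapped with wild type. Tgfbi fell by 1.31 in RAS cells (adjusted p = 2.97e-09), was at -0.03 in MT-HGF cells (95% confidence interval -0.22 to 0.15), and was 2.42-fold higher in MT-HGF than in RAS cells (adjusted p = 2.33e-08).

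Tenascin C, a matrix glycoprotein of wounds and tumour stroma, was the member that moved most with AG1478. Tnc was at 10.87, 10.72 and 10.83 log2 units on AG1478-treated MT-HGF arrays, 11.33, 11.33 and 11.43 on MT-HGF arrays, 11.68, 11.65 and 11.69 on RAS arrays and 11.10, 11.21 and 11.19 on wild-type arrays. No 2 groups overlapped, with RAS highest, then MT-HGF, wild type and AG1478-treated cells. It rose by 0.51 in RAS cells (adjusted p = 9.82e-06) and by 0.20 in MT-HGF cells (adjusted p = 0.0207, and 0.087 without MT-HGF replicate 3 and 0.0766 without wild-type replicate 1). AG1478-treated cells were below untreated MT-HGF cells by 0.56 (-0.56 ± 0.065, adjusted p = 1.20e-05) and below wild type by 0.36 log2 units (adjusted p = 0.000242).

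**Figure D3:**
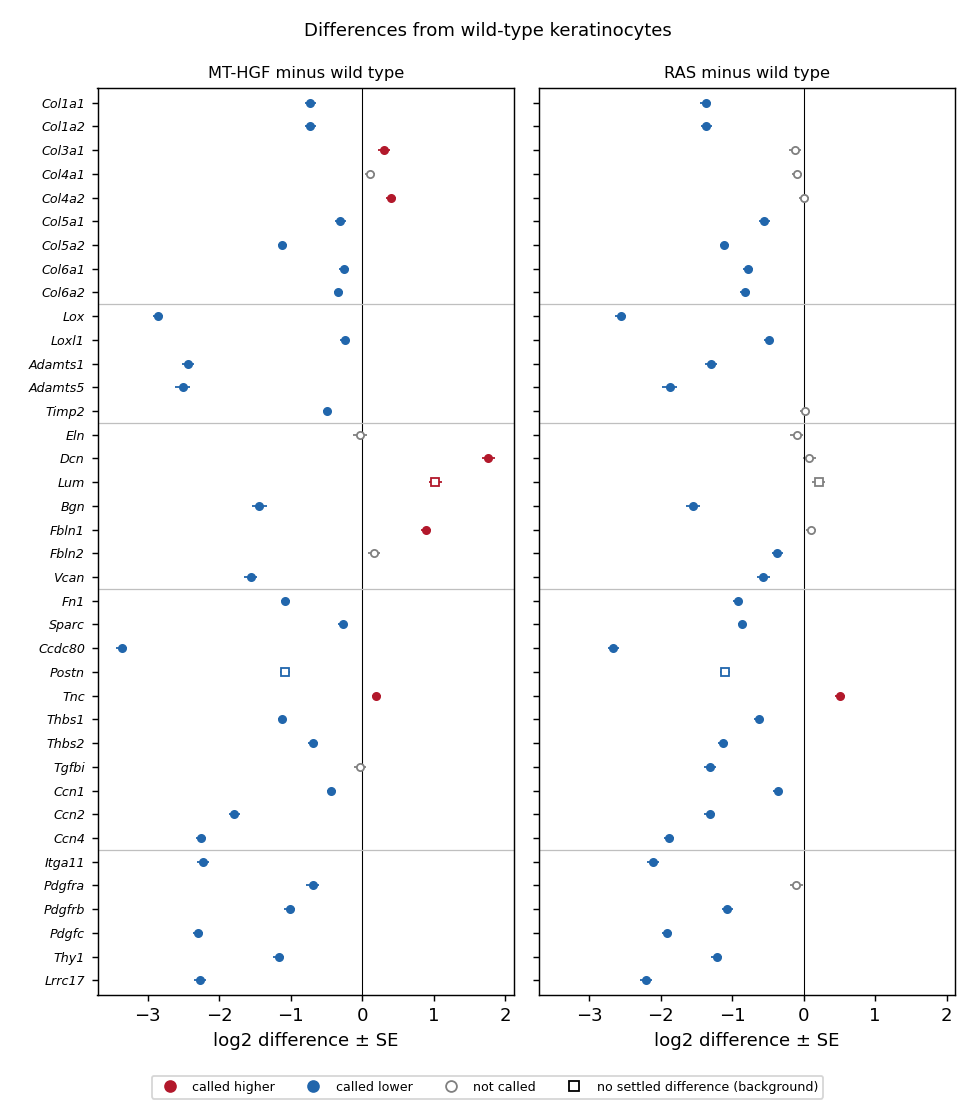
Log2 difference from wild type (horizontal axes, ± SE of the fit, n = 3 arrays per group) of the 38 members in MT-HGF cells (left) and RAS cells (right), which share the wild-type arrays. Filled red and blue points were called higher and lower, open circles were not called, and squares (Lum and Postn) mark genes with no settled difference at background, while genes whose fold is a bound (Adamts5, Vcan, Pdgfc) are drawn at fitted values; Dcn, Fbln1, Col4a2 and Col3a1 were called higher over wild type in MT-HGF but not in RAS cells.

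Among receptors, ligand and surface markers, 5 of 6 tested genes were called lower in RAS cells (19.9% of all genes were). In MT-HGF cells all 6 were called lower (23.9% of all genes were). Itga11 encodes the alpha chain of a collagen-binding integrin of fibroblasts. Itga11 was at 7.30, 7.19 and 7.40 log2 units on AG1478-treated MT-HGF arrays, 7.12, 7.04 and 7.17 on MT-HGF arrays, 7.15, 7.35 and 7.20 on RAS arrays and 9.17, 9.43 and 9.41 on wild-type arrays. Lrrc17, which encodes a secreted leucine-rich repeat protein, was at 8.46, 8.32 and 8.56 log2 units on AG1478-treated MT-HGF arrays, 8.29, 8.19 and 8.24 on MT-HGF arrays, 8.15, 8.36 and 8.38 on RAS arrays and 10.36, 10.54 and 10.62 on wild-type arrays. For both genes only the wild-type arrays were high, and the other groups lay close together. In those groups Lrrc17 lay between 8.15 and 8.56 log2 units. Itga11 lay close above background there, between 7.04 and 7.40, so its folds and its MT-HGF minus RAS interval are limited by background. Itga11 was 4.3-fold lower in RAS and 4.68-fold lower in MT-HGF cells, Lrrc17 4.62-fold and 4.81-fold, and the MT-HGF minus RAS intervals were -0.30 to 0.05 and -0.24 to 0.12 log2 units.

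The genes of platelet-derived growth factor (PDGF) signalling, which drives growth of mesenchymal cells, differed in pattern. Pdgfc, a ligand of the alpha receptor, was at 6.95, 6.84 and 6.97 log2 units on AG1478-treated MT-HGF arrays, 6.77, 6.55 and 6.59 on MT-HGF arrays, 6.97, 7.03 and 7.08 on RAS arrays and 8.89, 8.92 and 8.99 on wild-type arrays. It was 3.75-fold lower in RAS cells, where 1 of 3 arrays was above background, and at least 3.96-fold lower in MT-HGF cells, where none was; its call after AG1478 lies wholly below background. The alpha receptor gene Pdgfra was at 7.87, 7.70 and 7.51 log2 units on AG1478-treated MT-HGF arrays, 8.00, 7.88 and 8.08 on MT-HGF arrays, 8.51, 8.55 and 8.65 on RAS arrays and 8.79, 8.55 and 8.68 on wild-type arrays. RAS and wild-type arrays overlapped (-0.10, not called), MT-HGF arrays were lower by 0.69 (adjusted p = 1.09e-05), and treated arrays lower than those by a further 0.29 (adjusted p = 0.0366). That last call was lost without any 1 of 5 arrays, with an adjusted p of 0.172 without AG1478-treated replicate 3. The beta receptor gene Pdgfrb, in contrast, fell by 1.07 in RAS and by 1.01 in MT-HGF cells, with an MT-HGF minus RAS interval of -0.11 to 0.21. Thy1, a surface glycoprotein of fibroblasts, fell by 1.21 in RAS and by 1.16 in MT-HGF cells.

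**Figure D4:**
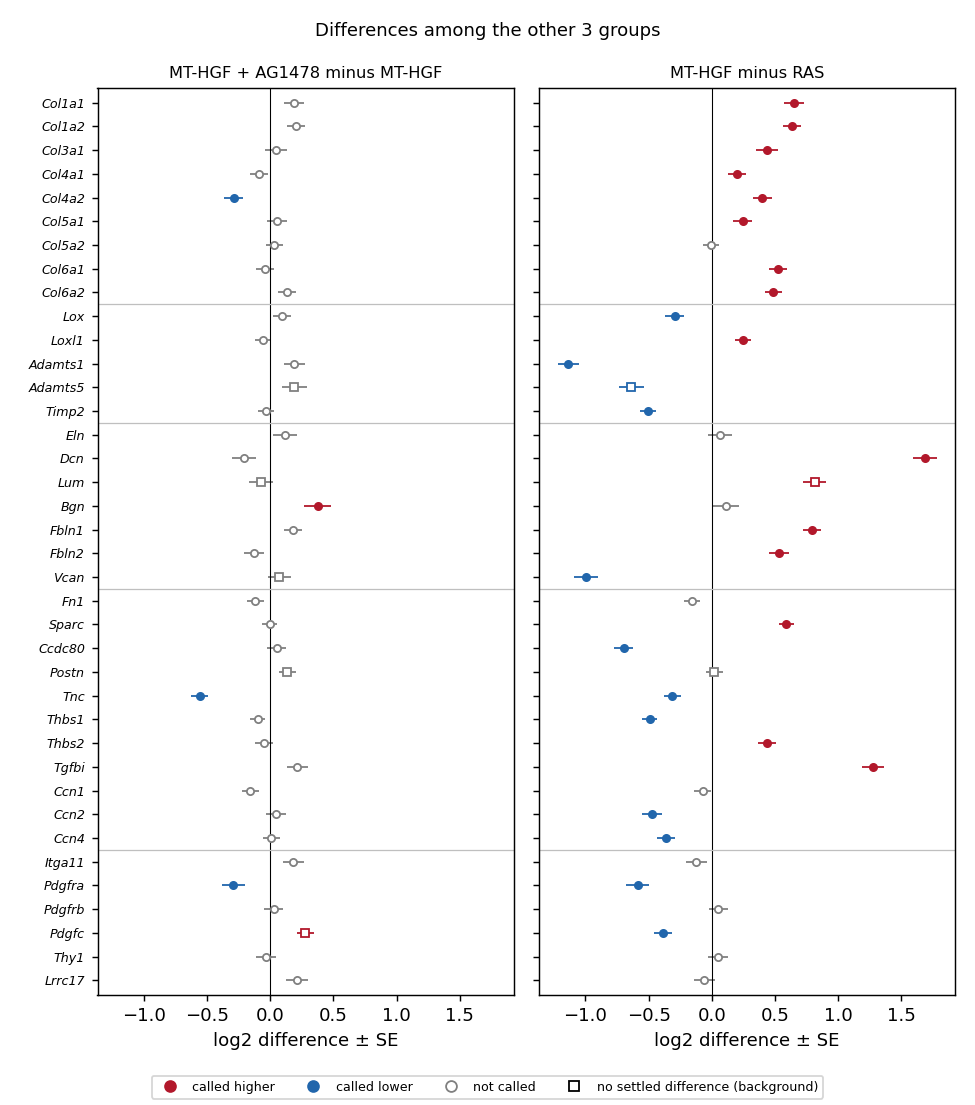
Log2 difference (± SE of the fit, n = 3 arrays per group) of the 38 members for AG1478-treated minus untreated MT-HGF cells (left) and MT-HGF minus RAS cells (right), with symbols as in the plot of differences from wild type. The left panel stays within -0.56 and 0.37, while the right panel reaches from -1.13 (Adamts1) to 1.69 (Dcn). There 8 of 9 collagens lie to the right of 0 and were called (13.4% of all genes were called higher), the calls of Col4a1 and Col5a1 weakly.

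Position in the genome gave 5 pairs of members with no protein-coding gene between them in the RefSeq annotation. Adamts1 and Adamts5 on chromosome 16 and Col6a1 and Col6a2 on chromosome 10 were called lower in MT-HGF cells within each pair, and Dcn has Lum beside it, which lay at background. Col3a1 and Col5a2, neighbours on chromosome 1, had fitted differences of 0.31 and -1.12 log2 units there, and Col4a1 and Col4a2 on chromosome 8 0.11 and 0.41.

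The wider matrix lists, chosen with the members known, held genes called in both directions. Their counts are to be read against the shares of all genes called lower and higher, 19.9% and 12.6% in RAS cells and 23.9% and 17.1% in MT-HGF cells. Of 20 other collagens, 3 were called lower and 1 higher in RAS cells, and 4 lower and 2 higher in MT-HGF cells, no larger shares than those of all genes. Col6a3, the partner chain of Col6a1 and Col6a2, was at -1.20 in RAS and -0.76 in MT-HGF cells, and Col12a1 at -0.94 and -0.47. Col18a1, a basement membrane collagen, rose by 0.53 in RAS and by 1.09 in MT-HGF cells and was lower by 0.48 after AG1478. Genes of collagen modification and processing had 11 of 23 lower and 3 higher in RAS cells and 10 lower and 6 higher in MT-HGF cells; of those lower, 10 in RAS and 9 in MT-HGF cells had a level above background in at least 1 group compared. Among them were Pcolce, a procollagen processing enhancer (-0.96 in RAS cells), the lysyl oxidase relative Loxl3 (-1.28 in MT-HGF cells) and the protein disulfide isomerase gene P4hb, which rose by 0.87 in MT-HGF cells.

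Basement membrane genes of the epidermis were split, with 5 of 15 higher and 5 lower in RAS cells and 6 higher and 3 lower in MT-HGF cells; of those lower, 4 in RAS and 2 in MT-HGF cells had such a level. The laminin beta 3 chain gene Lamb3 rose by 1.04 in RAS and by 0.57 in MT-HGF cells, and Nid1, which encodes nidogen 1, by 0.76 and 0.85. After AG1478, 7 of the 15 were lower (9.91% of all genes were) and 2 higher (6.57% were). Lamb1 was at -0.55 and Itga6 at -0.54 there. By the fitted difference, the largest change in this list after AG1478 was a rise of Fras1. It was above background on treated arrays, with a mean of 7.41 log2 units. On untreated MT-HGF arrays Fras1 lay below background, at 6.21, 6.26 and 6.12. It was not above background in RAS or wild-type cells either. Matrix receptors had 8 of 20 lower and 4 higher in RAS cells and 10 lower (9 with such a level) and 5 higher in MT-HGF cells. Itga2, the alpha chain of the collagen-binding integrin of keratinocytes, was at 10.42, 10.28 and 10.31 log2 units on AG1478-treated MT-HGF arrays, 11.12, 10.99 and 11.09 on MT-HGF arrays, 11.41, 11.23 and 11.32 on RAS arrays and 9.17, 9.01 and 9.08 on wild-type arrays. Unlike Itga11 it was higher than wild type in all 3 other groups, by 2.23 in RAS cells and by 1.98 in MT-HGF cells, and lower by 0.73 with AG1478 than without (adjusted p = 2.32e-06). Among the receptors called lower, Itga8 was at -1.54 in RAS and -1.39 in MT-HGF cells, and Itgb6 at -1.37 and -1.24. With AG1478, 6 of the 20 receptors were lower and 4 higher than without. The largest change was a rise of Itgb8, at 7.91, 7.85 and 7.51 log2 units on treated arrays. On untreated MT-HGF arrays Itgb8 lay below background, at 6.32, 6.24 and 6.31.

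Other elastic fibre and microfibril genes had 7 of 13 lower and 0 higher in RAS cells, and 4 lower (3 with such a level) and 2 higher in MT-HGF cells; Fbln5 was at -1.31 and -1.08, and Efemp1 rose by 0.68 in MT-HGF cells. The list of other Ccn, thrombospondin, tenascin and Adamts genes had 9 of 24 lower and 0 higher in RAS cells and 10 lower and 1 higher in MT-HGF cells. Of these, 7 of the 9 and 8 of the 10 had a level, while Smoc2 and Adamts15 (lower in both) and Sparcl1 (the 1 higher gene) lay at background in both groups compared. In this list the metalloprotease inhibitor gene Timp3 was at -1.25 and -2.27 and was higher by 0.60 with AG1478 than without. Of the 9 measured TGF-beta ligands, receptors and effectors, 2 were lower and 1 higher in RAS cells, and 3 lower and 3 higher in MT-HGF cells; the list is too short for these counts to be set apart from the shares of all genes. The ligand gene Tgfb3 was at 7.58, 7.30 and 7.68 log2 units on AG1478-treated MT-HGF arrays, 7.45, 7.43 and 7.56 on MT-HGF arrays, 8.01, 8.40 and 8.12 on RAS arrays and 10.15, 10.13 and 10.16 on wild-type arrays. It was 3.93-fold lower in RAS and 6.37-fold lower in MT-HGF cells, while Tgfb1 rose by 0.48 in MT-HGF cells.

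Markers of other cell types moved with these results in part. Their counts too are to be read against the shares of all genes, 19.9% lower and 12.6% higher in RAS cells. In MT-HGF cells these shares were 23.9% and 17.1%. Of 9 measured markers of smooth muscle cells and pericytes (10 named), 8 were lower and 0 higher than wild type in RAS and in MT-HGF cells. Their summed level lay at 11.98 to 12.09 log2 units in AG1478-treated, 11.91 to 11.97 in MT-HGF, 12.47 to 12.67 in RAS and 13.82 to 13.99 in wild-type arrays. Actg2, a smooth muscle actin gene, was at 8.08, 7.94 and 8.17 log2 units on AG1478-treated MT-HGF arrays, 7.90, 8.02 and 8.04 on MT-HGF arrays, 9.18, 9.37 and 9.01 on RAS arrays and 11.10, 11.30 and 11.32 on wild-type arrays. Des, which defines muscle cells, was not above background in any group, and Myh11 was above it only in wild-type cells.

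Of 21 measured fibroblast markers outside the members (22 named), 10 were lower and 4 higher in RAS as in MT-HGF cells. With AG1478, 3 were lower (9.91% of all genes were) and 3 higher (6.57% were) than without. A level above background stood behind 9 of the 10 lower genes in RAS and in MT-HGF cells. It stood behind 2 of the 4 higher genes in RAS cells. Their summed level was 13.37 to 13.43 log2 units in AG1478-treated, 13.44 to 13.54 in MT-HGF, 13.48 to 13.63 in RAS and 13.78 to 13.85 in wild-type arrays. Dpt, Mfap5, Mfap4, Pi16, Clec3b and Gpx3 were not above background in any group, while Vim, Crabp1 and Twist2 were well above it in all. Prrx1, a transcription factor gene of mesenchyme, fell by 0.97 in RAS and by 1.37 in MT-HGF cells. Pdpn, the gene of podoplanin, which keratinocytes also express, rose by 2.00 and 3.14, and Dpp4 was at least 1.89-fold higher in MT-HGF cells.

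The 11 measured keratinocyte markers (12 named) summed to 15.68 to 15.73 log2 units in AG1478-treated, 15.62 to 15.66 in MT-HGF, 15.60 to 15.67 in RAS and 15.65 to 15.70 in wild-type arrays. This sum is weighted to the genes with the highest signal, such as Krt5 and Krt14. Against wild type, 1 marker was higher and 2 lower in RAS cells, and 1 was higher and 1 lower in MT-HGF cells. The 1 higher in each was Epcam, an epithelial adhesion molecule gene, which rose by 2.00 in AG1478-treated, 2.06 in MT-HGF and 1.68 log2 units in RAS cells. The 9 melanocyte markers were above background in every group, with summed levels of 13.41 to 13.56, 13.41 to 13.58, 13.84 to 13.97 and 13.75 to 13.89 in the same order of groups, and 6 of 9 were lower in MT-HGF than in wild-type cells. All 6 measured endothelial markers (8 named) were below background in AG1478-treated, MT-HGF and wild-type cells, as were 5 of 6 in RAS cells. Of 7 measured leukocyte markers (10 named) 3 were lower (2 with a level) and 1 higher in RAS cells. In MT-HGF cells 4 were lower (2 with a level) and 1 higher. Ptprc and Itgam, which define leukocytes and myeloid cells, were below background in every group. Lyz2 was above background only in wild-type cells, at 8.27, 7.32 and 7.47 log2 units. Fcer1g was likewise above it only there, at 7.13, 7.28 and 7.15. Tyrobp, also called lower in RAS and MT-HGF cells, lay close to background in wild-type cells, at 6.89, 6.84 and 7.02. It was not above background in the other groups. No fold is given for Tyrobp, and it is not counted among the genes with a level. Cd68, the 1 higher gene, was above background in every group and rose by 1.29 in RAS and by 1.28 in MT-HGF cells. The part of the muscle, fibroblast, melanocyte and leukocyte markers in the differences of the matrix genes was not tested.

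**Figure D5:**
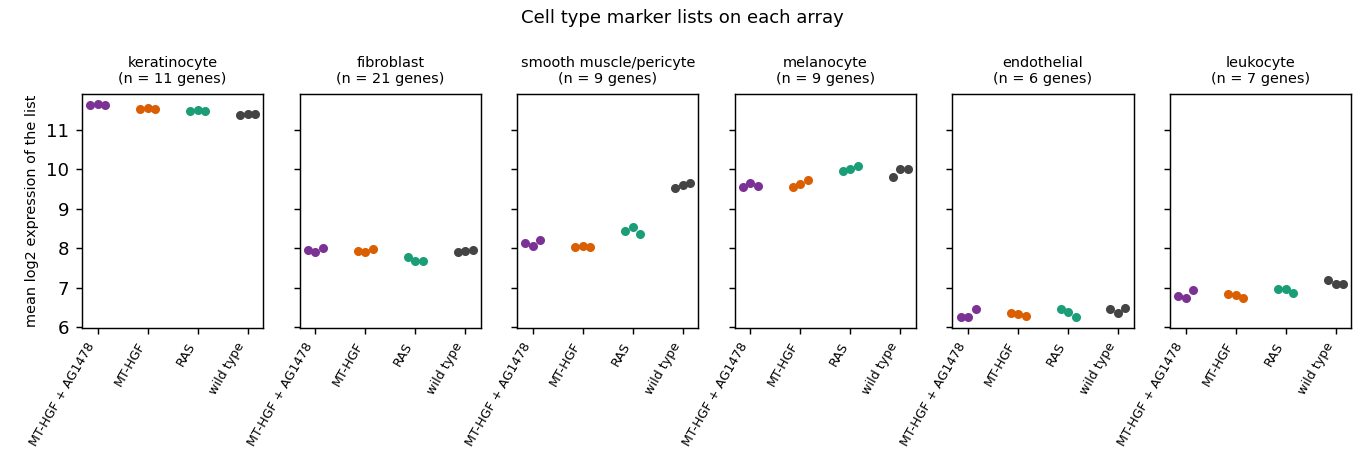
Mean log2 expression (RMA) of 6 cell type marker lists on each of the 12 arrays, 3 points per group. The smooth muscle and pericyte list is highest on the 3 wild-type arrays, and the endothelial list stays below the array backgrounds. The keratinocyte list runs between 11.38 and 11.65 with wild type lowest. Epcam, the only keratinocyte marker called higher than wild type in RAS and in MT-HGF cells, weighs on this mean. The median difference of the keratinocyte markers from wild type was -0.04 in both.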

How the data were processed

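The authors deposited log2 expression values for 35511 transcript clusters on 12 arrays, made with RMA per the submitters' processing notes; its version, and whether all arrays went through 1 run, are not given in the sources used here. Columns were matched to samples by accession and groups taken from the titles. GEO's platform annotation gave 21789 clusters a single symbol, 1621 several and 12101 none; 21698 matched a RefSeq record by Entrez ID, which changed 0 symbols. Clusters above the 30th percentile of their array on at least 3 arrays were kept, each gene was represented by its kept cluster of highest mean, and 15868 genes were tested.

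A group-means model over all 12 arrays was fitted with limma 3.58.1 (R 4.3.3), default eBayes, 8 residual and 8.02 prior degrees of freedom, with Benjamini-Hochberg adjustment over all genes of each of 5 comparisons; errors are its standard errors. The fit was tested on simulated data. A gene at or below the background of all 3 arrays of the lower group has its fold given as a bound against that background; where neither group was above it, none is given. There is no read depth on arrays; the number of arrays limits the precision. Array values are given for up to 3 called members of each role with the largest difference, and for those called against most of their role; up to 4 called genes of other lists are named by size, and further genes after their values were seen. The members and lists were chosen with earlier results of these data known. Promoter windows came from RefSeq.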

Additional observations from a re-analysis of the deposited data

How the results depend on the processing

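Every count of called members and every member's difference was recomputed under 22 other settings, 12 of which left out 1 array each. No called member's difference changed sign under any of them. Members called higher in RAS than in wild-type cells numbered 2, in place of 1, with only the compared arrays in the fit and 2 with array weights. The added member was Lum, which lay below background on all 12 arrays. Lum was also the added member without MT-HGF replicate 3. Members called higher after AG1478 than in untreated MT-HGF cells numbered 5, in place of 2, with quantile normalization repeated, 1 with only the compared arrays and 10 with array weights, whose fit stopped before its tolerance was reached; the cause was not tested.

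Leaving out 1 array at a time gave 1 to 2 members higher and 28 to 28 lower for RAS against wild type, 5 to 6 and 27 to 28 for MT-HGF against wild type, and 14 to 16 and 12 to 12 for MT-HGF against RAS. It gave 0 to 3 and 2 to 3 for AG1478-treated against untreated MT-HGF cells, and 4 to 5 and 28 to 29 for AG1478-treated against wild-type cells. With the replicate number as a block the counts were 1 and 28, 6 and 28, 16 and 12, 2 and 3, and 4 and 29 in the same order of comparisons; correlations of same-numbered arrays' deviations from the group means lay between -0.266 and 0.528, and in no comparison were all 3 over 0.1, so the numbers were not taken as pairs. For MT-HGF with RAS each array correlated best with its own number (0.473, 0.0868 and 0.495), a hint from the data and not from the design. The stricter filter left out Lum and Postn. For genes near background, signal over background limits what can be measured.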
